A study of Danio rerio with 6 samples.

Results

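The C/EBP genes named cebpb, cebpd, cebpg, cebpz and cebp1 were followed in the injured zebrafish heart. They were chosen by gene name from the deposited expression table, with the difference between the RO and DMSO libraries already known from earlier work on these data. The table paired 4 of the 5 names with a row, out of 14211 genes in all, and cebp1 was not analysed here. Because the same contrast stood behind the choice, the values of the 4 genes are given as a description, with no test.

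The samples were ventricle apices of adult fish of the AB strain, all cryoinjured, meaning that part of the heart was killed with a cold probe. Fish of the RO group received RO, a small-molecule inhibitor of the protease gamma secretase, by peritoneal injection at 24 h and again at 48 h, and fish of the DMSO group received the DMSO carrier at the same times. Tissue was taken 72 h after injury, and each library pooled the apices of 3 hearts. There were 3 libraries per group, numbered 2, 3 and 4 in RO and 1, 2 and 3 in DMSO. No uninjured heart was among the samples, so every level below is one of the injured apex, and cleavage of Notch receptors by gamma secretase was not measured.

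C/EBP proteins are transcription factors of the basic leucine zipper class, which bind DNA as pairs held together by a zipper of leucines. The family takes part in inflammation, the acute-phase response, the making of myeloid cells and the differentiation of fat cells. In mammals C/EBP beta and C/EBP delta are induced by inflammatory cytokines such as interleukin 6. C/EBP gamma has no activation domain of its own and pairs with other family members and with ATF4. The product of cebpz carries a related name but is no zipper protein. Its counterpart in budding yeast helps to assemble the large ribosomal subunit in the nucleolus. The cebp1 gene of zebrafish is known from developing myeloid cells.

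Between 3306018 and 4463303 reads per library stood behind the table, and values are on a scale close to that of CPM. Heart muscle genes were abundant in every library: the 14 cardiomyocyte marker genes measured summed to 63205 to 78632 in RO and 70144 to 86829 in DMSO. Over all genes, 147 passed an adjusted p of 0.05 by limma, 92 higher and 55 lower in RO. In bulk tissue, fewer cells of a type and less RNA per cell cannot be told apart. Lengths of the transcripts were not used, so levels are compared between libraries and not between genes.

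The clearest separation among the C/EBP genes was that of cebpd (ENSDARG00000087303), the inducible inflammatory member. Its value was 127, 138 and 112 in RO replicates 2, 3 and 4, against 245, 248 and 238 in DMSO replicates 1, 2 and 3. The highest RO library lay far below the lowest DMSO library, and within each group the libraries stood close together. The means were 126 ± 12.8 in RO and 243 ± 5.32 in DMSO (SD, n = 3 each). The log2 fold change was -0.95 with a standard error of 0.11, a level 1.94-fold lower in RO. Between 455 and 630 reads per RO library and 798 to 1006 per DMSO library carried these values. The spread between the DMSO libraries was 2.19% of their mean, where counting alone would give about 3.31%, and in RO it was 10.2% against 4.44% from counting.

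Few genes at such a level had a lower fold change. Among the 1379 genes with a mean of at least 100, cebpd had the 4th lowest log2 fold change, and among all 14211 genes the 157th lowest. Of the 4 C/EBP genes cebpd was the one whose RO and DMSO libraries did not overlap. Over all genes 18.7% had groups that did not overlap, 9.35% with RO lower. These shares are background to the cebpd value and are not a test of it.

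The other inflammatory member, cebpb (ENSDARG00000042725), was lower on average in RO, with overlapping groups. Its value was 199, 142 and 130 in RO replicates 2, 3 and 4, and 221, 234 and 165 in DMSO replicates 1, 2 and 3. RO replicate 2 stood above DMSO replicate 3, while RO replicates 3 and 4 were below every DMSO library. The means were 157 ± 36.5 in RO and 207 ± 36.7 in DMSO (SD, n = 3 each), and the log2 fold change was -0.40 with a standard error of 0.18. The spread between libraries was 23.2% of the mean in RO and 17.7% in DMSO, several times the counting error of 3.999% and 3.63%. Without RO replicate 2 the log2 fold change was -0.59, and without RO replicate 4 it was -0.28.

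**Figure D1:**
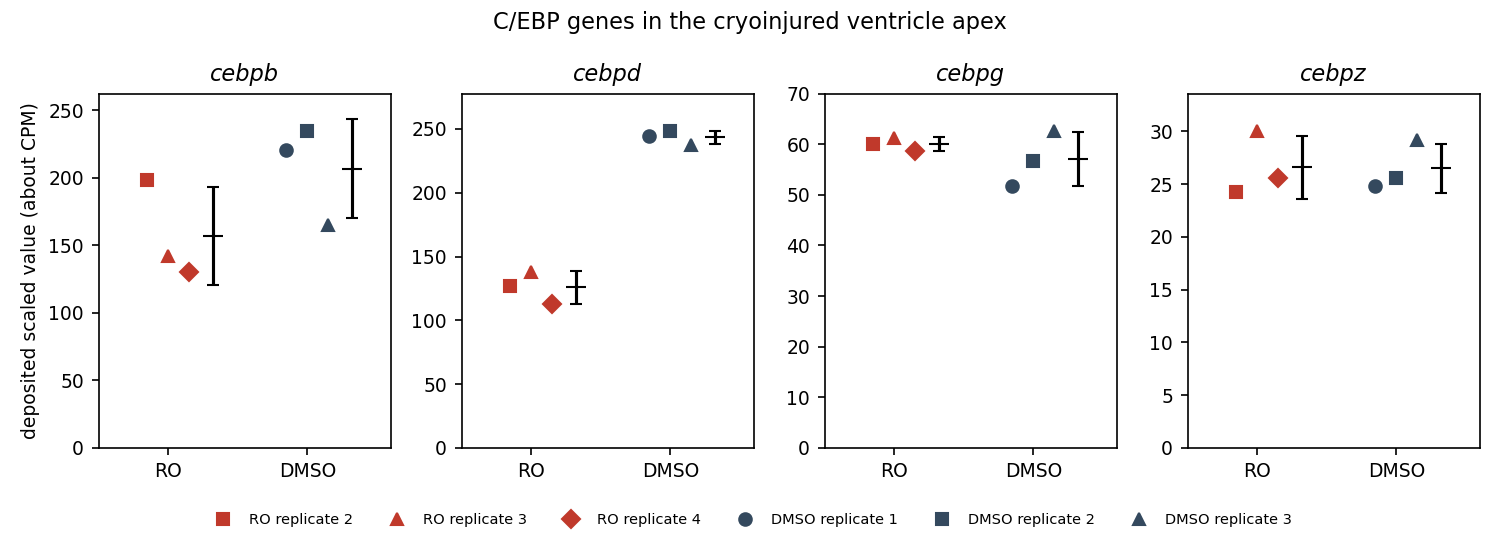
Deposited scaled value (vertical axis, from 0) of cebpb, cebpd, cebpg and cebpz in each library, RO left and DMSO right, with the mean and SD of each group (n = 3) as a bar beside the points. For cebpd the RO libraries lie between 112 and 138 and the DMSO libraries between 238 and 248; for the other genes the groups overlap.

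The partner gene cebpg (ENSDARG00000036073) stood at nearly the same level throughout. It had 60.05, 61.3 and 58.6 in the RO libraries and 51.8, 56.8 and 62.5 in the DMSO libraries. The RO values fell inside the DMSO range. The means were 60.0 ± 1.34 in RO and 57.0 ± 5.37 in DMSO (SD, n = 3 each), with a log2 fold change of 0.077 and a standard error of 0.12. The table lists 2 transcripts for cebpg and 1 for each of the others, and its values do not tell the transcripts apart.

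The ribosome assembly gene cebpz (ENSDARG00000045857) had 24.3, 30.0 and 25.6 in the RO libraries and 24.8, 25.6 and 29.2 in the DMSO libraries. Both groups covered the same range, with means of 26.6 ± 3.00 in RO and 26.5 ± 2.34 in DMSO (SD, n = 3 each). The log2 fold change was 0.0037 with a standard error of 0.15. Its sign turned with quantile normalization, with the replicate number as a term, and without RO replicate 3, DMSO replicate 1 or DMSO replicate 2. The spread of 11.3% in RO and 8.83% in DMSO was about that of counting alone, 9.67% and 10.02%. At 87 to 137 reads per library, a small difference of cebpz was not detectable.

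**Figure D2:**
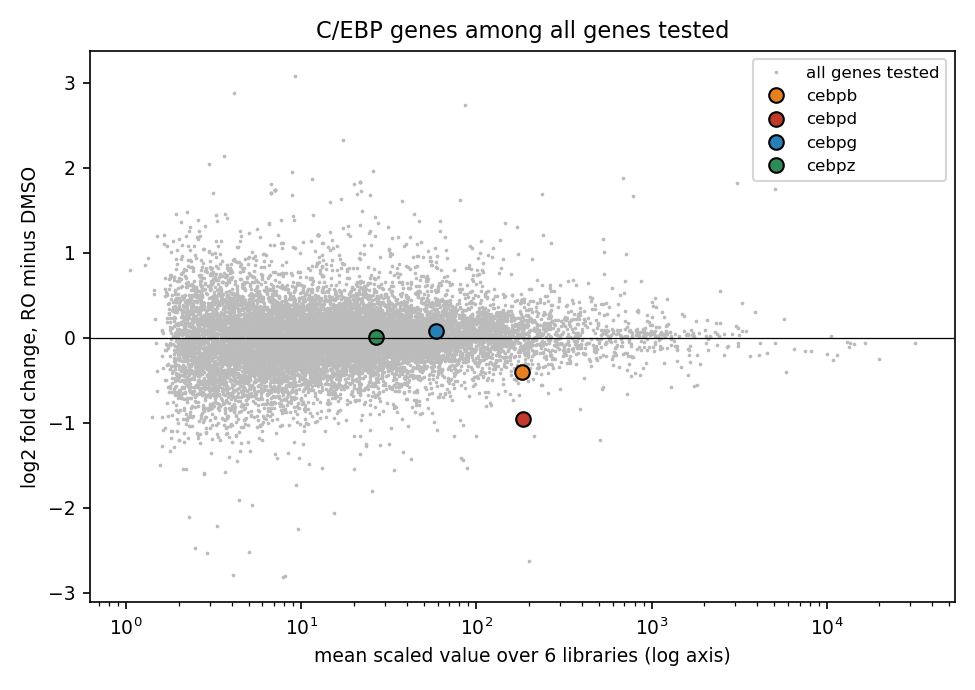
Log2 fold change, RO minus DMSO (vertical axis), against the mean scaled value over 6 libraries (horizontal log axis) for all 14211 genes in grey and the 4 C/EBP genes in colour. The point of cebpd at -0.95 lies at the lower edge of the genes of its level, that of cebpb at -0.40 lies closer to 0, and those of cebpg and cebpz sit near 0.

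Since C/EBP proteins act in pairs, the genes were also set against each other within each library. The ratio of cebpd to cebpg was 2.12, 2.25 and 1.92 in the RO libraries, against 4.72, 4.37 and 3.80 in the DMSO libraries. The size of such a ratio depends on transcript lengths, but its change between libraries does not. The ratio was lower in every RO library than in any DMSO library, averaging 2.09 ± 0.168 in RO and 4.30 ± 0.466 in DMSO (SD, n = 3 each). For cebpb over cebpg the ratio was 3.31, 2.32 and 2.22 in RO and 4.27, 4.13 and 2.64 in DMSO. These groups overlapped through RO replicate 2 and DMSO replicate 3. The ratio of cebpd to cebpb was 0.640, 0.969 and 0.864 in RO and 1.11, 1.06 and 1.44 in DMSO, lower in every RO library than in any DMSO library. Which of the 2 genes was the more abundant cannot be read from it. No test was made of these ratios, which rest on the same libraries as the choice of genes.

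**Figure D3:**
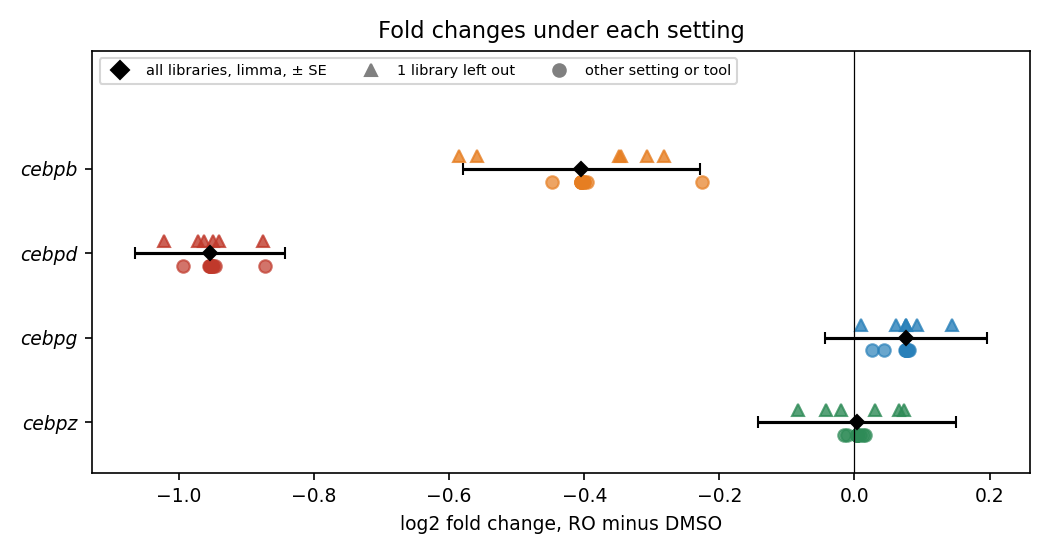
Log2 fold change, RO minus DMSO (horizontal axis), of the 4 C/EBP genes with all libraries (diamond, with its standard error), with 1 library left out (triangles) and under another setting or tool (circles). The values of cebpd stay between -1.02 and -0.87 and those of cebpb between -0.59 and -0.23, while those of cebpz fall on both sides of 0.

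For each of the 4 genes, the genes with the most similar profile over the 6 libraries were sought. Genes picked in this way copy the scatter of a member as well, so they do not show that the 4 profiles differ. Likeness was the root mean square distance between log2 values centred on the mean of each gene, over 7607 named genes whose level averaged at least 10. Nearest to cebpd was HAS1 (ENSDARG00000042983), a hyaluronan synthase, at a distance of 0.0777. It had 36.3, 41.2 and 36.5 in the RO libraries and 81.2, 78.2 and 69.7 in the DMSO libraries. Next were rrbp1b, for a ribosome-binding protein of the endoplasmic reticulum, at 0.0827 and ARRDC3, for an arrestin-domain protein, at 0.112. All 3 were lower in RO over all genes, with means of 38.0 ± 2.75 against 76.4 ± 5.98 for HAS1 (adjusted p = 0.00481 by limma), 33.3 ± 3.46 against 62.2 ± 5.03 for rrbp1b (adjusted p = 0.0122) and 82.8 ± 2.97 against 145 ± 12.3 for ARRDC3 (adjusted p = 0.00934; SD, n = 3 for each mean, RO before DMSO). They were picked for their likeness to cebpd, which brings their difference with it.

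The genes nearest to cebpb were TIAM1, which encodes an activator of the small GTPase Rac, at 0.0760, si:ch211-85n16.3 at 0.0847, and the chromatin regulator asxl1 at 0.0879. They shared with cebpb the high value of RO replicate 2 and the low value of DMSO replicate 3. TIAM1, for example, had 40.5, 27.4 and 29.0 in RO and 45.7, 51.6 and 36.6 in DMSO. Around cebpg lay the homeobox gene CUX1 at 0.0292, the mitochondrial chaperone gene HSPA9 at 0.0348 and the leucine breakdown gene MCCC2 at 0.0351. Around cebpz lay RASA3 at 0.0383, the translation initiation gene EIF3A at 0.0435 and DDX18, a nucleolar RNA helicase gene, at 0.0479. None of the 9 genes nearest to cebpb, cebpg or cebpz passed the threshold (adjusted p = 0.289 to 0.973 by limma). They were picked for their likeness to genes whose groups overlapped, which brings this with it.

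**Figure D4:**
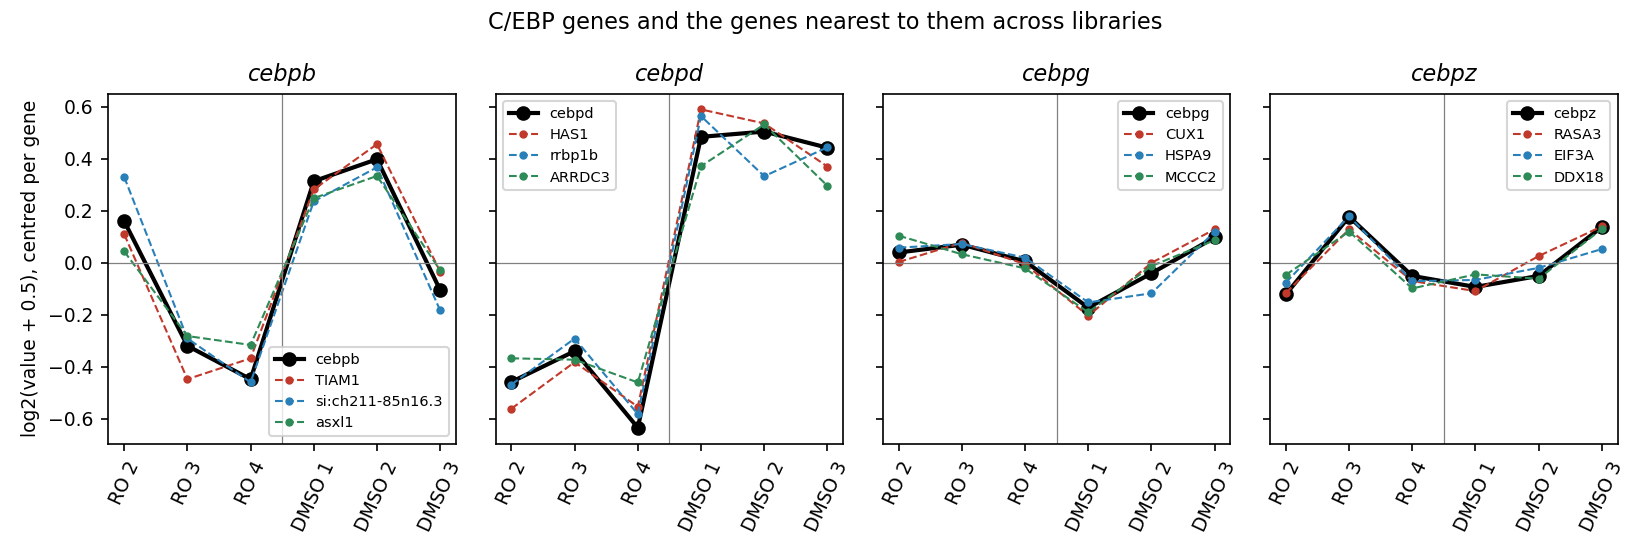
Log2(value + 0.5) centred on the mean of each gene (vertical axis) across the 3 RO and 3 DMSO libraries, for each C/EBP gene (black) and the 3 genes nearest to it (dashed). The cebpd group of genes steps between RO and DMSO, the cebpb group varies within both groups as well, and the cebpg and cebpz groups are nearly flat.

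The nearest neighbours of the C/EBP genes on the chromosome that were matched by name, up to 3 genes away, did not pass the threshold. Nearer genes may have been measured under another name or without one. By the gene order of the RefSeq assembly GRCz12tu, the neighbours of cebpd so matched on chromosome 24 were MCM4, a replication licensing gene, and DTNA, which encodes a dystrobrevin. MCM4 averaged 42.1 ± 16.7 in RO and 36.9 ± 3.03 in DMSO, and DTNA 3.32 ± 0.459 in RO and 4.33 ± 1.69 in DMSO (SD, n = 3 each; adjusted p = 0.887 and 0.758 by limma). At 10 to 21 reads per library, a small difference of DTNA was not detectable. Beside cebpb, the phosphatase gene ptpn1 averaged 43.0 ± 2.58 in RO and 40.7 ± 1.73 in DMSO, and peds1 67.4 ± 6.18 in RO and 50.1 ± 6.84 in DMSO (adjusted p = 0.844 and 0.194 by limma). Every RO library of peds1 lay above every DMSO library, as for 9.32% of all genes. For the neighbours of cebpg and cebpz, adjusted p = 0.416 to 0.907 by limma.

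The same libraries were read for markers of other cell types, with no test of any list as a whole. Over all genes 1.03% passed by limma and 1.1% by edgeR on recovered reads, and 13.4% had an unadjusted p below 0.05 by limma. DESeq2 called 240 of all 14211 genes, which is 3.05% of the 7874 to which it gave an adjusted p. Of 10 fibroblast markers 8 lay below 0, with a median log2 fold change of -0.51, and none passed over all genes by limma or edgeR (6 had an unadjusted p below 0.05 by limma, and DESeq2 called 4). Their summed level was 6155 to 7794 in RO and 7842 to 9690 in DMSO, and none was at 0 in any library. In the macrophage, thrombocyte, neutrophil and endothelial lists most genes lay above 0. The 18 macrophage genes, 16 of them above 0, summed to 2256 to 2759 in RO and 1746 to 2335 in DMSO. The 7 thrombocyte genes, 6 of them above 0, summed to 212 to 345 in RO and 158 to 197 in DMSO. Of these, limma and edgeR called 1 and DESeq2 3, and 4 had an unadjusted p below 0.05 by limma. The 8 neutrophil genes, 6 of them above 0, summed to 586 to 749 in RO and 535 to 661 in DMSO. Of 14 endothelial and endocardial genes 9 lay above 0, and the sum was 860 to 983 in RO and 811 to 866 in DMSO. Of these genes 2 were called by limma, 3 by edgeR and 3 by DESeq2, and 6 had an unadjusted p below 0.05 by limma. Of the macrophage genes DESeq2 called 1 and limma and edgeR none (5 had an unadjusted p below 0.05 by limma), and no neutrophil gene was called by limma, edgeR or DESeq2 (1 had an unadjusted p below 0.05 by limma). Each tool also called 1 cardiomyocyte and 1 skeletal muscle gene. No epicardial or erythrocyte marker was called by limma, edgeR or DESeq2. Between the groups the fibroblast and thrombocyte sums did not overlap, and the macrophage, neutrophil, endothelial, cardiomyocyte, epicardial and erythrocyte sums did. The part of these cells in the C/EBP levels was not tested.

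Set against the summed markers of each cell type within a library, cebpd was lower in RO without overlap for 8 of 11 marker lists. The level of cebpd was itself lower without overlap, so these ratios carry that difference and are no separate support. The share of all genes with such ratios was not counted. Against the fibroblast sum it stood at 1.63%, 2.09% and 1.83% in RO and 2.65%, 3.16% and 2.45% in DMSO. Against the endothelial and endocardial sum it stood at 14.8%, 14.0% and 11.7% in RO and 29.2%, 28.7% and 29.3% in DMSO. Against the macrophage sum it stood at 4.61%, 6.12% and 4.50% in RO and 10.5%, 11.2% and 13.6% in DMSO. The groups overlapped against the erythrocyte sum of 6 genes and against the lymphocyte and liver lists, of which 1 gene each was measured. For cebpb the ratio was lower without overlap for 4 of the 11 lists, those of macrophage, neutrophil, thrombocyte and skeletal muscle. The level of cebpb itself overlapped, so these ratios also carry differences of the marker sums. Against the fibroblast sum the cebpb ratio overlapped, at 2.55%, 2.15% and 2.12% in RO and 2.40%, 2.99% and 1.71% in DMSO. Some ratios of cebpg and cebpz, whose own levels overlapped between the groups, did not overlap either. Against the thrombocyte sum both were lower in RO without overlap, cebpg at 17.4% to 27.7% in RO and 31.6% to 32.7% in DMSO, and cebpz at 7.03% to 12.1% in RO and 14.2% to 15.7% in DMSO. Against the fibroblast sum cebpg was higher in RO without overlap, at 0.77% to 0.953% in RO and 0.561% to 0.724% in DMSO. Against the cardiomyocyte sum the groups of cebpg nearly touched, with RO replicate 4 at 0.0746% just above DMSO replicate 3 at 0.0745%. The other ratios of both genes overlapped, 8 lists for cebpg and 10 for cebpz.

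Genes tied to C/EBP by known biology were read from 9 lists. Together they held 200 measured genes other than the C/EBP genes themselves, 115 above 0 and 85 below, with a median log2 fold change of 0.036, beside 48.4% above 0 and a median of -0.010 over all 14211 genes. Over all genes 1.03% passed, and of the 200 there was 1, ARG2. The edgeR test on recovered reads passed 2 of the 200, beside 1.1% of all genes. DESeq2 passed 7 of the 200, beside 240 of all 14211 genes. The 240 are 3.05% of the 7874 genes to which DESeq2 gave an adjusted p, and how many of the 200 had one was not counted. At an unadjusted p below 0.05 by limma stood 46 of the 200, beside 13.4% of all genes. Those with groups that did not overlap made up 27%, beside 18.7% of all genes.

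The 1 that passed came from the acute-phase and inflammatory genes with C/EBP sites, of which 17 genes were measured. Of these, 8 lay above 0 and 9 below, with a median log2 fold change of -0.039. At an unadjusted p below 0.05 by limma stood 8, beside 13.4% of all genes, and edgeR called 1 and DESeq2 3. Groups did not overlap for 47.1%, with 6 genes higher and 2 lower in RO, beside 18.7% of all genes. ARG2 (ENSDARG00000039269), a mitochondrial arginase, had 61.2, 44.7 and 29.2 in the RO libraries and 20.9, 14.97 and 16.1 in the DMSO libraries. It rose 2.47-fold, with a log2 fold change of 1.30 (SE 0.24, adjusted p = 0.0334 by limma), and every RO library lay above every DMSO library. The call ended without RO replicate 2 or 3 and without any 1 DMSO library, with adjusted p up to 0.121, and by limma without the mean-variance trend (0.163). The remaining genes of the list had log2 fold changes from -1.08 to 1.14, and both ends belonged to PTGS2, the prostaglandin synthase of inflammation. One PTGS2 gene (ENSDARG00000004539) had 12.9, 23.2 and 12.2 in RO and 38.2, 33.6 and 28.3 in DMSO. The other (ENSDARG00000010276) had 16.8, 14.9 and 15.3 in RO and 8.75, 8.001 and 4.47 in DMSO. Neither passed (adjusted p = 0.0576 and 0.0567 by limma), both were singled out after their values were seen, and reads of such paralogs can be split between copies.

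Among 30 measured zipper partners and relatives of C/EBP, 11 lay above 0 and 19 below, with a median of -0.091. None passed over all genes by limma, while 7 had an unadjusted p below 0.05, beside 13.4% of all genes, and DESeq2 called 3. The most abundant were JUN and XBP1. JUN, a subunit of AP-1, averaged 285 ± 9.53 in RO and 335 ± 50.4 in DMSO (adjusted p = 0.505 by limma), and XBP1, a factor of the unfolded protein response, 316 ± 17.8 in RO and 272 ± 21.8 in DMSO (adjusted p = 0.441; SD, n = 3 each). FOS, the partner of JUN, and ATF3 were singled out after their values were seen. FOS had 69.5, 65.5 and 31.9 in RO and 119, 112 and 82.5 in DMSO (adjusted p = 0.120 by limma). ATF3 had 187, 160 and 141 in RO and 48.1, 69.9 and 138 in DMSO (adjusted p = 0.132). The groups of both genes did not overlap, with FOS below and ATF3 above DMSO. Over the list 3 genes were higher and 4 lower without overlap, 23.3% of it, beside 18.7% of all genes. The smallest adjusted p of the list were those of tefa (0.0587 by limma) and 1 JDP2 gene (ENSDARG00000020133, 0.0935), both lower in RO without overlap. The ATF4 gene measured here, atf4b, was singled out as a known partner of C/EBP gamma. It averaged 304 ± 9.50 in RO and 232 ± 14.9 in DMSO (adjusted p = 0.118 by limma, SD, n = 3 each). Every RO library of atf4b lay above every DMSO library, as for 9.32% of all genes.

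Upstream signals through interleukin 6, interleukin 1 and STAT3 gave 34 measured genes, 18 above 0 and 16 below, with a median of 0.002. None passed the threshold by limma (8 at an unadjusted p below 0.05, beside 13.4% of all genes), and DESeq2 called 1. Groups did not overlap for 23.5%, with 6 genes higher and 2 lower in RO, beside 18.7% of all genes. The smallest adjusted p of the list was that of tnfb (0.0567 by limma), named after its values were seen. It had 7.54, 8.54 and 8.03 in RO and 3.89, 3.355 and 2.08 in DMSO, at 7 to 39 reads per library. One SOCS3 gene (ENSDARG00000025428), a feedback inhibitor of STAT3 signalling, had 420, 487 and 338 in RO and 798, 586 and 517 in DMSO (log2 fold change -0.60, SE 0.18, adjusted p = 0.152 by limma). It was the gene of this list that DESeq2 called (adjusted p = 0.027), and over the other alternatives its adjusted p was 0.135 to 0.351. Its groups did not overlap, with the highest RO library close below the lowest DMSO library. Over all genes 9.35% had groups that did not overlap with RO lower. The other SOCS3 gene (ENSDARG00000026611), named after its values were seen, had 131.3, 133.8 and 130.2 in RO and 340.8, 155.6 and 121.5 in DMSO. Its groups overlapped (adjusted p = 0.508 by limma). The kinase gene JAK1 averaged 217 ± 43.5 in RO and 220 ± 24.6 in DMSO (adjusted p = 0.964 by limma; SD, n = 3 each). STAT3 itself, named after its values were seen, averaged 77.4 ± 20.9 in RO and 73.5 ± 14.0 in DMSO (adjusted p = 0.945).

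In the nucleolar ribosome assembly list set beside cebpz, 36 of 43 measured genes lay above 0 and 7 below, with a median of 0.17. None passed by limma, edgeR or DESeq2 (8 had an unadjusted p below 0.05 by limma, beside 13.4% of all genes). For 10 genes every RO library lay above every DMSO library, beside 9.32% of all genes, and for 0 the other way round, beside 9.35%. The most abundant were the paired RPL5 genes, which encode a protein of the large ribosomal subunit, at 1166 ± 137 in RO and 1130 ± 85.5 in DMSO (ENSDARG00000020197) and at 1004 ± 85.4 in RO and 976 ± 63.2 in DMSO (ENSDARG00000015862; adjusted p = 0.928 and 0.923 by limma; SD, n = 3 each). Their direction turned with quantile normalization and without RO replicate 2, and that of ENSDARG00000020197 also without DMSO replicate 3. The NOC genes of the list, singled out by their name, had log2 fold changes of 0.18 (NOC2L), -0.081 (NOC3L) and 0.076 (noc4l).

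No gene of the other lists passed by limma or DESeq2, and edgeR called 1, in the stress response list. Over all genes 13.4% had an unadjusted p below 0.05 by limma, and 18.7% had groups that did not overlap. Such groups made up 35.7% of the stress response list (5 genes higher and 5 lower in RO). They made up 18.8% of the neutrophil list (3 higher and 0 lower) and 23.1% of the regulators (4 higher and 2 lower). The 28 integrated stress response genes split into 15 above 0 and 13 below, with a median of 0.018 and 6 at an unadjusted p below 0.05. Of these, CHAC1, a glutathione-degrading enzyme gene, averaged 427 ± 18.7 in RO and 351 ± 73.5 in DMSO, and HSP90B1, an endoplasmic reticulum chaperone gene, 283 ± 36.1 in RO and 308 ± 4.48 in DMSO (adjusted p = 0.394 and 0.686 by limma; SD, n = 3 each). Among the 16 neutrophil genes downstream of C/EBP in granulopoiesis, 11 were above 0 and 5 below, with a median of 0.065 and 2 at an unadjusted p below 0.05. The proteoglycan gene srgn averaged 415 ± 77.0 in RO and 344 ± 6.11 in DMSO, and the protease gene adam8a 172 ± 36.8 in RO and 171 ± 30.9 in DMSO (adjusted p = 0.451 and 0.997 by limma). Of 26 regulators that interact with C/EBP, 16 were above 0 and 10 below, with a median of 0.032 and 5 at an unadjusted p below 0.05. The corepressor gene NCOR1 averaged 189 ± 40.7 in RO and 251 ± 33.4 in DMSO (adjusted p = 0.292 by limma; SD, n = 3 each). With the replicate number as a term NCOR1 passed, at a log2 fold change of -0.55 (adjusted p = 0.0321 by limma). In that fit the fold change rests on replicates 2 and 3 of both groups alone. Over the other alternatives the adjusted p of NCOR1 was 0.151 to 0.586.

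Work in mice ties C/EBP factors to activation of the epicardium after injury. It also ties a lower level of C/EBP beta, which opposes CITED4, to growth of heart muscle with exercise. Of 5 epicardial genes 4 lay below 0, with a median of -0.33, and 1 had an unadjusted p below 0.05 by limma. Groups did not overlap for 40% of them, with 1 gene higher and 1 lower in RO. ALDH1A2, the enzyme of retinoic acid synthesis, was the 1 above 0 and averaged 517 ± 40.0 in RO and 448 ± 39.3 in DMSO, and the T-box gene TBX18 15.7 ± 3.78 in RO and 19.7 ± 3.82 in DMSO (adjusted p = 0.492 and 0.565 by limma; SD, n = 3 each). Of 8 cardiac genes 5 were above 0 and 3 below, with a median of 0.13. At an unadjusted p below 0.05 by limma stood 4 of the 8, beside 13.4% of all genes. Groups did not overlap for 50% of them, with 2 genes higher and 2 lower in RO, beside 18.7% of all genes. The gene cited4a had 196, 338 and 395 in RO and 122, 177 and 354 in DMSO, so both groups spread over most of the same range (adjusted p = 0.510 by limma). GATA5 averaged 180 ± 12.4 in RO and 174 ± 23.8 in DMSO (adjusted p = 0.911).

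**Figure D5:**
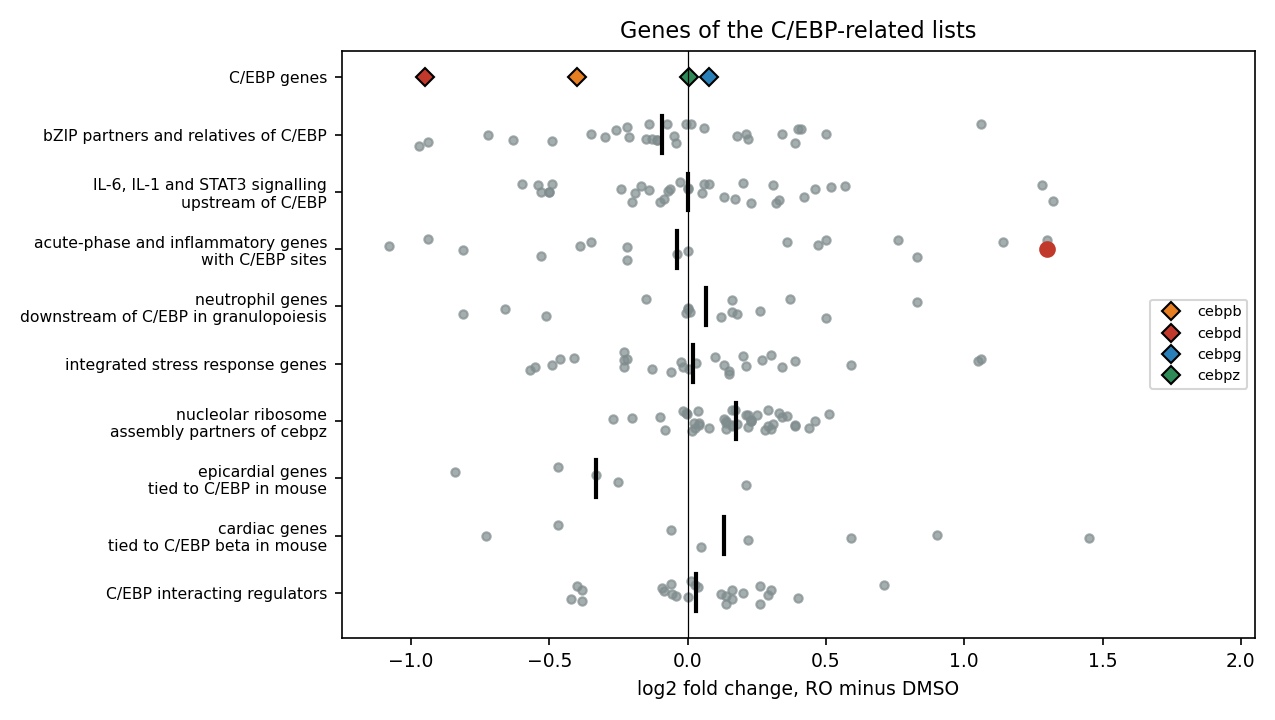
Log2 fold change, RO minus DMSO (horizontal axis), of the 4 C/EBP genes (diamonds, top) and of genes of 9 lists tied to C/EBP (grey points, with the list median as a black bar and a red point where the adjusted p was below 0.05). The 1 red point is ARG2 at 1.30, and the medians lie between -0.33 and 0.17.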

How the data were processed

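RNA of 6 libraries was measured as polyA sequencing. The submitters' processing notes name RSEM 1.2.3, Bowtie2 2.0.6, cutadapt 1.6.1, CASAVA 1.8 and edgeR, and Zv9 as the build, with no role given; annotation release and use of strand were not given in the sources used here. The authors deposited 1 table of a scaled signal per gene and library. All values were whole reads within 0.01 once divided by 1 factor per library, and these recovered reads, 3306018 to 4463303 per library, set the precision.

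Values were tested as log2(value + 0.5) for RO minus DMSO over 14211 genes by limma-trend (limma 3.58.1 in R 4.3.3), with Benjamini-Hochberg adjustment and a threshold of 0.05. A minimum of 1 in 3 libraries removed no gene. The design allowed for counts or scaled values, and that for scaled values applied. Fold changes are on the log2(value + 0.5) scale and understate those of low genes. Whether libraries of a group came from separate experiments is not stated, so p-values measure the spread between these pools.

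Symbols came from, and are printed as in, a table of gene IDs (11589 of 14211 matched), often in the human form; 271 of 384 list symbols were matched, 200 by symbol, 46 by synonym and 25 by the name without its paralog letter. No sequence was used, and the genome served only for gene order. Members and lists were chosen with earlier results of these data known. Named were the 4 measured members, up to 4 passing genes per list or else the 2 most abundant, and 3 genes nearest to each member; others are marked where they appear, and 1 named by this rule is not reported here. Alternatives were other pseudocounts, minimum values, scalings and limma settings, edgeR 4.0.16 and DESeq2 1.42.0 on recovered reads, the replicate number as a term and each library left out.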

Additional observations from a re-analysis of the deposited data

How the results depend on the processing

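The log2 fold change of cebpd stayed negative under all 16 alternatives, from -1.02 to -0.88 with 1 library left out, and so did that of cebpb, from -0.59 to -0.28. That of cebpg ran from 0.0099 to 0.14 and that of cebpz from -0.084 to 0.073. None of the 4 moved by more than the spread between libraries. Leaving out the filter, a minimum of 5 and limma without the trend cannot move a fold change, so those alternatives say nothing on it. The number of genes called depends on how the spread is modelled. Higher and lower genes numbered 0 and 1 by limma without the trend, 163 genes were higher by DESeq2, and with 1 library left out there were 13 to 69 higher and 9 to 42 lower, the fewest without DMSO replicate 2. Of the genes in the C/EBP-related lists, 2 were called higher with a pseudocount of 1, with a minimum of 5, with quantile normalization, with edgeR and with DESeq2, and 0 by limma without the trend; DESeq2 called 5 lower. With 1 library left out 0 to 3 were higher (3 without RO replicate 4; 0 without RO replicate 3, DMSO replicate 1 or DMSO replicate 2) and 0 to 1 lower. With the replicate block 247 genes were higher and 158 lower, 7 and 2 of them in the lists, and cebpb, cebpd and cebpz stood at -0.23, -0.87 and -0.016. Numbers 1 and 4 occur in 1 group each, so the block fold changes rest on replicates 2 and 3 of both groups alone. That fit leaves 1 degree of freedom for the spread, so its counts are not those of a fit to all libraries. The groups share only numbers 2 and 3, so the samples were not taken as pairs. Deviations from the group means correlated at 0.116 and 0.091 within those numbers. These were the highest values of any RO and DMSO library, against -0.116 to 0.043 between unlike numbers. Whether libraries of the same number belong together was not tested. Among list genes that did not pass, directions turned with the replicate block for GATA5 (-0.031) and JAK1 (0.18), and with quantile normalization for RPL5 (-0.037 and -0.028) and adam8a (-0.040). With 1 library left out GATA5 ran from -0.028 to 0.16, JAK1 from -0.18 to 0.099, the RPL5 genes from -0.028 to 0.092 and -0.052 to 0.11, and adam8a from -0.15 to 0.15. The causes of these changes were not tested. With 3 pools per group and 87 to 137 reads per library for cebpz, depth limits that gene most.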
